A study of Mus musculus with 4 samples.

Results

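The genes described here are 30 transcripts of the hypoxia-inducible factor (HIF) pathway, of 45706 genes in the count table. They were listed by name and matched to mouse Ensembl identifiers through GENCODE symbols. The list holds 6 subunits and regulators (Hif1a, Epas1, Arnt, Vhl, Egln2 and Hif1an) and 24 target genes outside glycolysis. Of the targets, Egln1 and Egln3 also encode regulators. All 30 passed the filter on low counts, with at least 10 counts in each library.

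HIF is a transcription factor made of an oxygen-labile alpha subunit and the stable partner ARNT. In the presence of oxygen, iron and 2-oxoglutarate, prolyl hydroxylases encoded by the Egln genes mark the alpha subunit for ubiquitination by the VHL complex, and the asparaginyl hydroxylase encoded by Hif1an limits its coactivator binding. Control is thus mainly on protein, and transcript levels of the subunits do not measure HIF activity. HIF targets shift metabolism, matrix modification, mitophagy, pH and blood vessel growth, and in pluripotent cells HIF is best known for its link to glycolytic metabolism.

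Polyadenylated RNA was measured in the mouse embryonic stem cell line V6.5, in 2 libraries at 0 h and 2 at 24 h, each pair lettered A and B and written 0 h A, 0 h B, 24 h A and 24 h B below. The 0 h libraries are labelled KLF WT and the 24 h libraries KLF KO. The labels describe lentivirus carrying Cas9 under a doxycycline-responsive promoter (TRE3G-Cas9-P2A-GFP, with rtTA and puromycin resistance) and guide RNAs that target only KLF4 or, in tandem, all 3 of KLF2, KLF4 and KLF5. Clones were picked by hand after selection, knockout was checked on protein blots per the labels, and doxycycline was added for 24 h in the KLF KO group. The 24 h titles name a KLF4 knockout, while all titles carry the abbreviation TKO. Which guides a library carried, and whether both groups came from the same clones, is not given in the sources used here. All libraries are labelled as grown in 2i, a MEK inhibitor (1 µM) with a GSK3 inhibitor (3 µM). The growth protocol names irradiated feeder cells, 15% serum and 1000 U/ml LIF. The oxygen tension of the cultures is not given in the sources used here. Doxycycline, Cas9 cutting, KLF loss and time cannot be told apart in this contrast. In bulk RNA, fewer cells of a type and less RNA per cell cannot be told apart either.

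Library totals ran from 46031578 to 52412844 counts. Transcripts of Klf2, Klf4 and Klf5 were at 123.5 to 430.9 CPM (counts per 1000000 after TMM scaling) in the 0 h libraries and 147.3 to 244.4 CPM at 24 h. The log2 fold changes of Klf2, Klf4 and Klf5 were -0.25, -0.29 and -0.72. For Klf4 and Klf5 both 24 h libraries lay below both 0 h libraries, as for 29.5% of all genes, and for Klf2 the groups overlapped. These 3 genes did not pass edgeR's test (adjusted p = 0.0567 for Klf5), and a transcript level does not check a small insertion or deletion. The library 0 h A stood apart, since its deviation from the mean of the libraries rose with the GC content of the gene (r = 0.580, and -0.311 to -0.224 in the other libraries, across 14331 genes that are not independent replicates). After correction for GC and length the log2 fold changes of Klf2, Klf4 and Klf5 were 0.14, -0.20 and -0.77. Without 0 h A they were 0.28, -0.10 and -0.42, and without 0 h B -0.63, -0.47 and -0.97. All 10 stem cell markers listed were detected, with summed levels of 6302 and 6247 CPM at 0 h and 5563 and 5604 CPM at 24 h. Of these, Pou5f1, Zfp42 and Utf1 fell, 3 of 10 where 2.65% of all genes tested fell. Their log2 fold changes were -0.54, -0.45 and -0.94, and -0.36, -0.53 and -0.48 after correction for GC and length. The log2 fold change was positive in 3 of the 10 stem cell markers, and the median was -0.17. With 0 h A, 0 h B, 24 h A and 24 h B left out in turn the median was -0.22, -0.16, -0.18 and -0.18. How many of the stem cell markers passed, and in which direction, depended on the libraries entered. Of 18 feeder fibroblast markers, S100a4, Dcn, Lum and Twist2 stayed under 0.25 CPM in each library, while Col1a1 was at 59.6 to 90.1 CPM. The feeder list summed to 242.1 CPM in 0 h A, 173.8 in 0 h B, 196.8 in 24 h A and 189.7 in 24 h B. The feeder sums at 24 h lie between those at 0 h, and of 14 feeder markers tested Pdgfrb fell and 13 did not pass (2.65% of all genes fell and 4.15% rose). Without 0 h A, 1 feeder marker was lower and 4 were higher (15.8% and 16.5% of all genes), and without 0 h B, 5 were lower and 1 was higher (27.0% and 23.2%). Without 24 h A, 1 was lower (1.05%), and without 24 h B, Pdgfrb did not pass.

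At 24 h, 7 of the 24 targets were lower, 1 was higher and 16 did not pass edgeR's quasi-likelihood test (adjusted p under 0.05). Across the 18005 genes tested, 2.65% were lower and 4.15% higher. The targets that fell were Ndrg1, Ak4, Egln1, Anxa2, Kdm3a, Gys1 and P4ha2, by between 31.2% and 66.0%. Car12 rose. The median log2 fold change of the 24 targets was -0.37, against -0.01 over all genes tested, and 18 of 24 were below 0, against 50.8% of all genes. The list was chosen with earlier results of these data known, so its contrasts with all genes are only descriptive. In 17 targets both 24 h libraries lay below both 0 h libraries, a pattern that 29.5% of all genes showed, and in 5 both lay above (29.3% of all genes). Of the 6 subunits and regulators, Epas1 fell and 5 did not pass, with a median of -0.19.

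The calls depended on which libraries entered. All 9 calls held, in the same direction, without either 0 h library and after correction for GC and length. Without 24 h A or without 24 h B, Ndrg1 alone of the 9 still passed, while the sign of all 9 was kept. The number of targets lower was 14 without 0 h A (background 15.8%), 14 without 0 h B (27.0%), 1 without 24 h A (1.05%) and 1 without 24 h B (0.899%). The number higher was 5, 4, 0 and 0 in the same order (background 16.5%, 23.2%, 1.97% and 1.81%). Where 1 library is left out, the remaining one of its group is assumed to vary like the other group. After correction for GC and length, 14 targets were lower and 4 higher, where the background was 12.2% and 11.4%. With a replicate block added to that correction the counts were 14 and 4 (17.2% and 15.0%), and with the block alone 12 and 3 (8.86% and 9.21%). Without a filter on low counts 11 were lower and 2 higher (5.10% and 4.61%). DESeq2's Wald test gave 10 and 2 (5.28% and 5.76%), limma voom 7 and 1 (2.16% and 3.87%), upper quartile scaling 7 and 2 (2.51% and 5%) and library size alone 7 and 2 (2.39% and 5.34%).

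**Figure D1:**
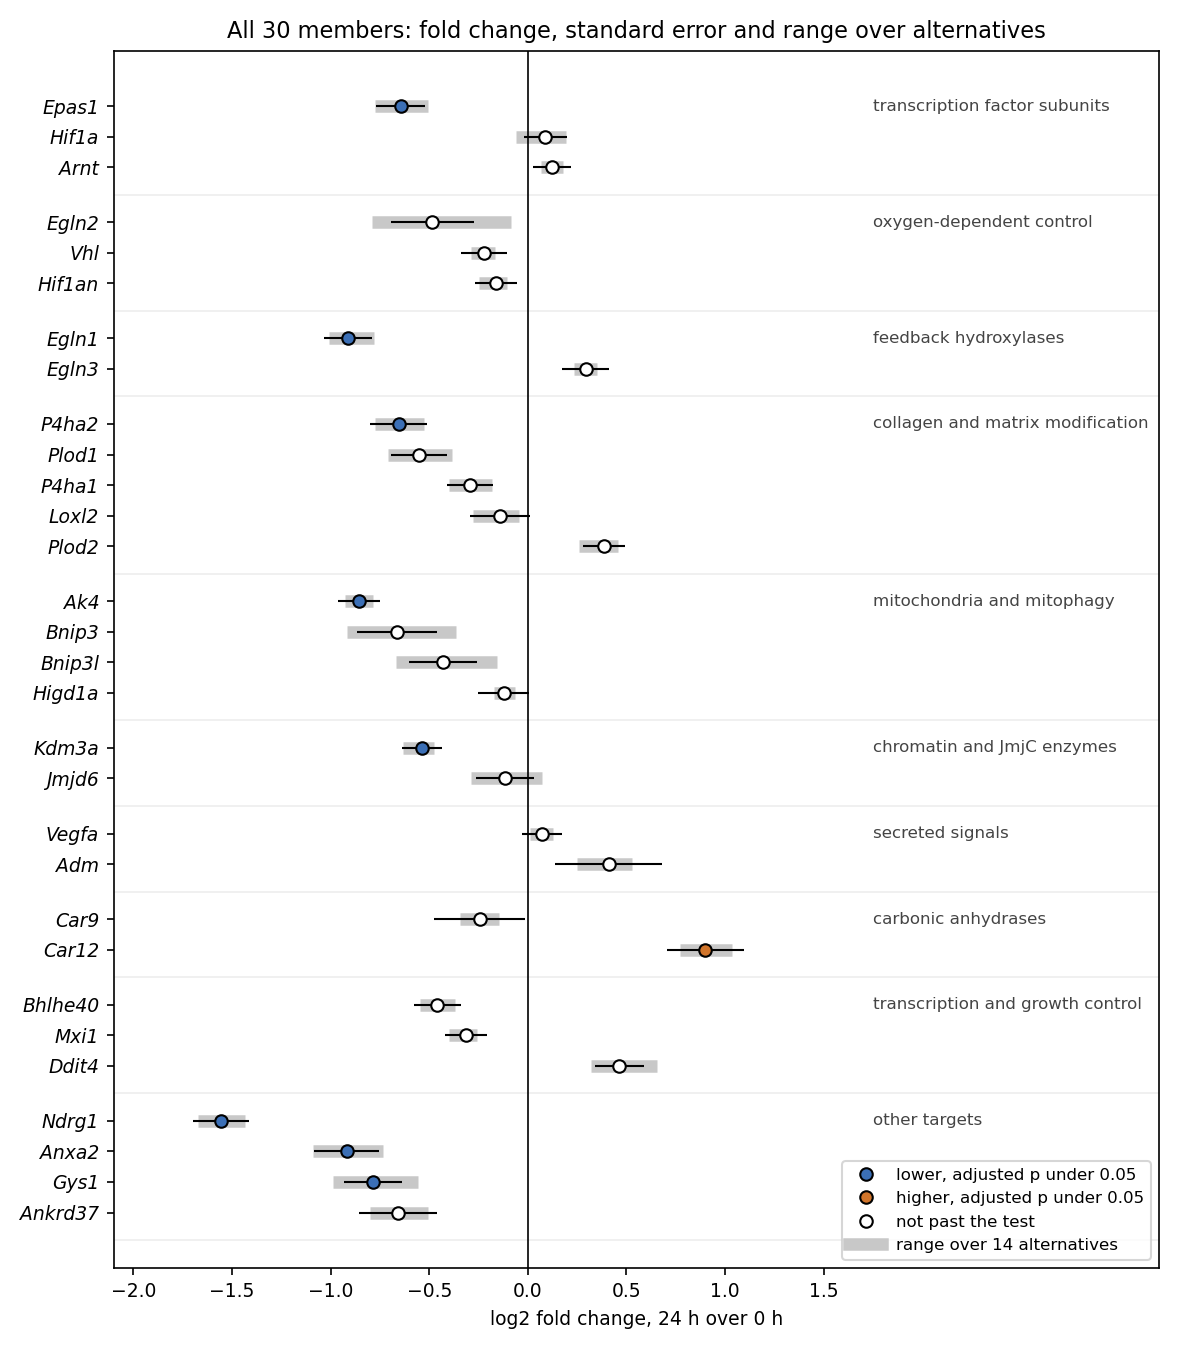
Log2 fold change (24 h over 0 h, x axis) of all 30 members by role. Points are the edgeR estimates with SE bars, filled where past the test, and grey bars span the 14 alternative analyses. Ndrg1 lies lowest at -1.56 and Car12 highest at 0.90, and the grey bars of Hif1a and Jmjd6 cross 0.

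HIF binds DNA at short motifs with the core ACGTG or GCGTG, and upstream sequences of 3 members that fell are shown to place these letters. RefSeq promoter windows (GRCm38.p6) were matched for 24 of the 30 members. Those not matched were Epas1, Ndrg1, Plod2, Loxl2, Bnip3l and Bhlhe40. In the 250 bases before the start, 20 of the 24 members held ACGTG or GCGTG on either strand in at least 1 window, and so did 41.5% of 27025 genes with a window. The latter are not limited to genes tested here. Most members were listed because they are HIF targets, so their share is no test of the motif. For Hif1a and Vegfa, bases after the start of the only window with a match were not found in a GENCODE transcript. Among members that fell and had a window, 5 of 6 held a match, and Gys1 did not. Among members with a window that did not pass the test, only Vhl and Hif1an held no match. Ddit4, Egln3, Adm and Arnt, which had positive fold changes, held matches, as did Hif1a and Vegfa in the windows noted above. Whether a match went with the direction of change was not tested. The window of Car12, which rose, held none. ACGTG overlaps the E-box CACGTG, which other factors bind, and a match is a description of letters, not of binding. Sequences run 5′ to 3′ on the strand of the gene and end at the base before the RefSeq start, in Ak4 the most upstream of several. In them, matches to either motif or its reverse complement are in capitals. That of Ak4 is chr4:101419039-101419288 (plus strand), that of Egln1 chr8:124949255-124949504 (minus strand) and that of Anxa2 chr9:69453433-69453682 (plus strand).
Ak4: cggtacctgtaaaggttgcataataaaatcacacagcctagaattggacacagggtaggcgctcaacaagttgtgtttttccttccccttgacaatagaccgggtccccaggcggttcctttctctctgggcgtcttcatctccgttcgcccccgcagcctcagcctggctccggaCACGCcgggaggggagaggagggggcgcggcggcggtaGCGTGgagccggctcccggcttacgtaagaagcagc
Egln1: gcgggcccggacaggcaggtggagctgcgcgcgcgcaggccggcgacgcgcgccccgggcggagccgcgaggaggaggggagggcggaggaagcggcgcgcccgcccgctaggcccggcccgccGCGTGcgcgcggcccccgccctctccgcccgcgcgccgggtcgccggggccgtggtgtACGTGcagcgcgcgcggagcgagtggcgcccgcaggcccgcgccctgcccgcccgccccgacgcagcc
Anxa2: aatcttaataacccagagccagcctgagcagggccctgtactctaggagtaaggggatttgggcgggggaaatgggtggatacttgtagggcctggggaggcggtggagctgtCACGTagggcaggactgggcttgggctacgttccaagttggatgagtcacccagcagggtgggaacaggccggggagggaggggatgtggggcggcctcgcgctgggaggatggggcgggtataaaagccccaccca
The matches begin 74 and 36 bases before the RefSeq start used for Ak4, 126 and 68 in Egln1, and 137 in Anxa2. From the other RefSeq starts of Ak4 the distances differ. The last bases of each sequence lie within the GENCODE span of its gene, and so does the second match in Egln1.

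Among the transcription factor subunits, Epas1 fell while Hif1a and Arnt did not pass. Epas1, which encodes HIF-2α, was at 68.8 and 57.3 CPM in 0 h A and 0 h B, and at 40.7 and 39.9 CPM at 24 h. The groups did not overlap, and the 24 h libraries were closer to each other than the 0 h libraries. The log2 fold change of Epas1 was -0.65 (SE 0.13, adjusted p = 0.0309). Epas1 lies on chromosome 17 (86753700 to 86833410). Hif1a, which encodes HIF-1α (chromosome 12, 73901375 to 73947530), was at 153.5 and 177.6 CPM at 0 h and 176.7 and 175.2 CPM at 24 h. Both 24 h values lay between the 0 h values. Its log2 fold change of 0.09 (adjusted p = 0.646) was -0.06 after correction for GC and length and -0.01 without 0 h A. Arnt, the shared partner of both alpha subunits, went from 141.7 and 144.5 CPM to 156.9 and 154.4 CPM (log2 fold change 0.12, SE 0.10, adjusted p = 0.456).

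Per kb of exon, Hif1a was the most abundant of these 3 transcripts at both times, at 28.1 ± 2.88 CPM per kb at 0 h and 29.8 ± 0.179 at 24 h (SD, n = 2). Arnt was at 17.7 and 18.05 CPM per kb in the 0 h libraries and 19.4 ± 0.217 at 24 h, and Epas1 at 11.3 ± 1.45 and 7.21 ± 0.106. The libraries of the 3 genes did not overlap in this order at either time. Epas1 made up 32.1% and 25.4% of the summed Hif1a and Epas1 level per kb in 0 h A and 0 h B, and 19.6% and 19.4% at 24 h. Its share was thus lower in both 24 h libraries.

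The genes of oxygen-dependent control outside the target set did not pass the test. Vhl, which encodes the substrate receptor of the ubiquitin ligase, was at 35.3 and 35.4 CPM at 0 h and 29.1 and 31.4 CPM at 24 h (log2 fold change -0.22, adjusted p = 0.269). Hif1an was at 66.5 and 67.6 CPM at 0 h and 62.6 and 57.2 CPM at 24 h (log2 fold change -0.16, adjusted p = 0.376). In both genes the 24 h libraries lay below the 0 h libraries by less than 10 CPM on the mean. Egln2, a prolyl hydroxylase gene of 62.2% GC, was at 66.4 CPM in 0 h A and 41.3 in B, and at 39.6 and 37.4 CPM at 24 h. The library 0 h A stood alone as high. Its log2 fold change was -0.48 (adjusted p = 0.203), and -0.10 without 0 h A, -0.79 without 0 h B and -0.09 after correction for GC and length. A pseudogene copy, Vhl-ps1, is annotated, and reads that fit both copies can be lost or split in the counts of Vhl.

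The feedback hydroxylases Egln1 and Egln3, HIF targets whose products in turn hydroxylate the alpha subunits, had fold changes of opposite sign. Egln1, the main HIF prolyl hydroxylase gene in most tissues (chromosome 8, 124908587 to 124949324), was at 57.3 and 50.4 CPM at 0 h and 28.4 and 28.8 CPM at 24 h. Both 24 h libraries lay far below both 0 h libraries. It fell by 46.9% (log2 fold change -0.91, SE 0.12, adjusted p = 0.0106). Egln3 was at 26.6 and 28.9 CPM at 0 h and 34.8 and 33.2 CPM at 24 h, without overlap but not past the test (log2 fold change 0.29, adjusted p = 0.178). Of the summed level per kb of Egln1, Egln2 and Egln3, Egln1 made up 32.1% and 35.4% at 0 h and 22.5% and 23.7% at 24 h. Egln3 made up 20.1% and 27.4% in the 0 h libraries, then 37.3% and 36.8% in the 24 h libraries. Egln1 was thus above Egln3 per kb in both 0 h libraries and below it in both 24 h libraries. The summed level itself went from 49.7 and 39.6 CPM per kb to 35.1 and 33.9.

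**Figure D2:**
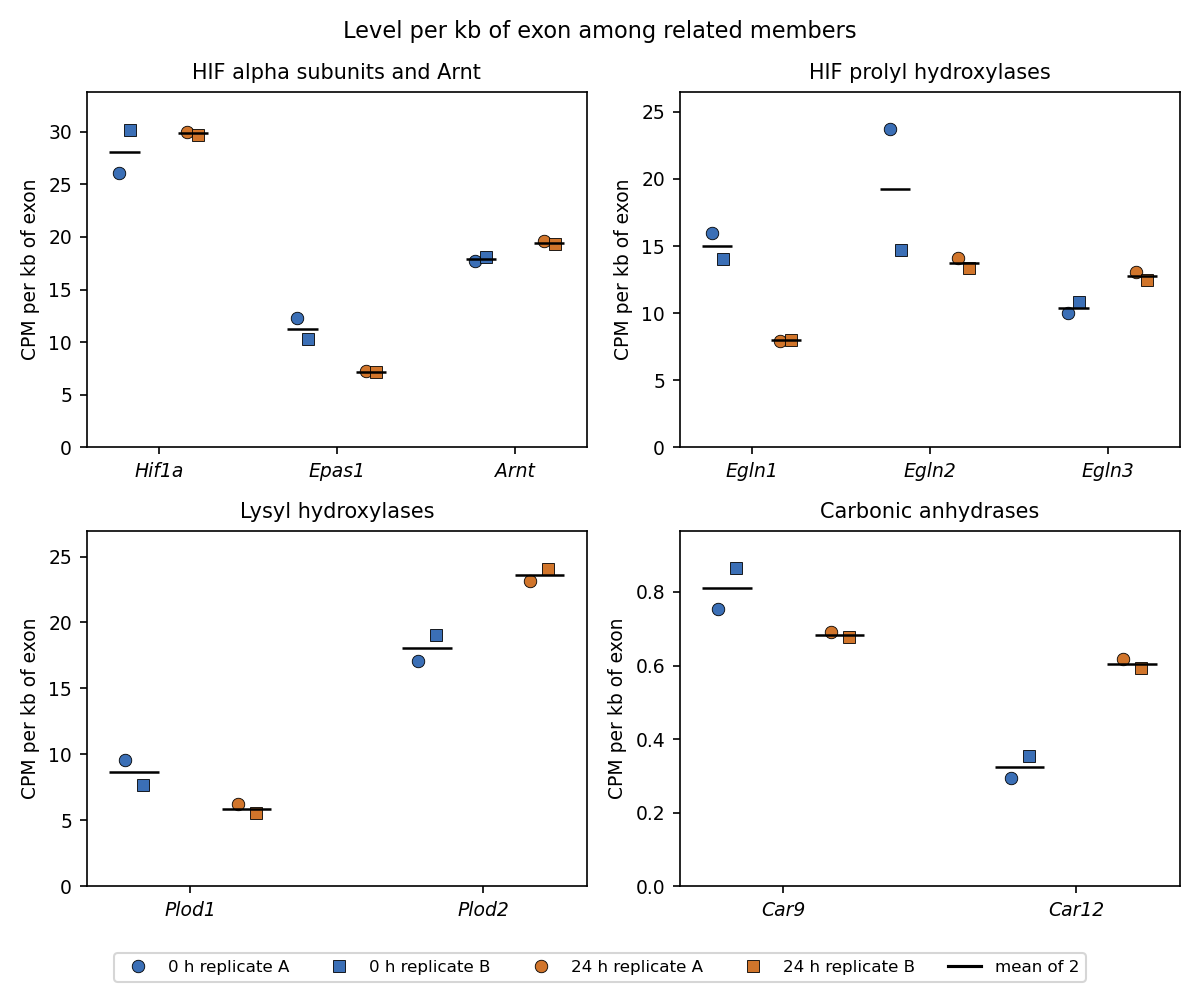
Level per kb of exon (CPM per kb, linear axis from 0) of related members in each library, with lines at the mean of 2 libraries. Egln1 drops from about the level of Egln2 in 0 h B to the lowest of the 3 hydroxylases at 24 h, and Car12 approaches Car9 from below.

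Ndrg1, Gys1, Anxa2 and Ankrd37 belong to none of the other role groups and are described together only for that reason. All had negative fold changes, as did 50.8% of all genes, and 3 of the 4 passed, where 2.65% of all genes were lower. Ndrg1, a stress and differentiation gene strongly induced by hypoxia (chromosome 15, 66929318 to 66969640), was at 50.6 and 43.0 CPM at 0 h and 16.9 and 14.9 CPM at 24 h. Each 24 h value was well under each 0 h value. Its log2 fold change of -1.56 (SE 0.14, adjusted p = 0.00419) was the lowest of the 30 members. Gys1, which encodes muscle-type glycogen synthase (chromosome 7, 45434844 to 45456619), was at 265.4 and 197.2 CPM at 0 h and 135.7 and 132.8 CPM at 24 h. The level was higher in 0 h A than in 0 h B, and the groups did not overlap. The log2 fold change of Gys1 was -0.78 (SE 0.15, adjusted p = 0.0290), and -0.56 without 0 h A. Gys1 shares 310 exonic bases with Ruvbl2 on the other strand, at a mean of 422.8 CPM, so its counts are uncertain.

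Anxa2, which encodes a calcium-dependent membrane-binding annexin (chromosome 9, 69453620 to 69491795), was at 20.4 and 15.9 CPM at 0 h and 9.82 and 9.38 CPM at 24 h. The 24 h values were near each other and below both 0 h values. For Anxa2 the log2 fold change was -0.92 (SE 0.16, adjusted p = 0.0241). Fibroblasts also express Anxa2, and the feeder sums given above were higher in 0 h A than in B, as Anxa2 was. At 24 h the feeder sums (196.8 and 189.7 CPM) lay above that of 0 h B (173.8 CPM), while Anxa2 lay below its 0 h B level. The part of feeder RNA in this result was not tested. Ankrd37, a small ankyrin repeat gene, was at 4.05 and 4.98 CPM at 0 h and 2.96 and 2.76 CPM at 24 h (log2 fold change -0.66, adjusted p = 0.0971). It shares 57 exonic bases with Ufsp2 on the other strand.

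**Figure D3:**
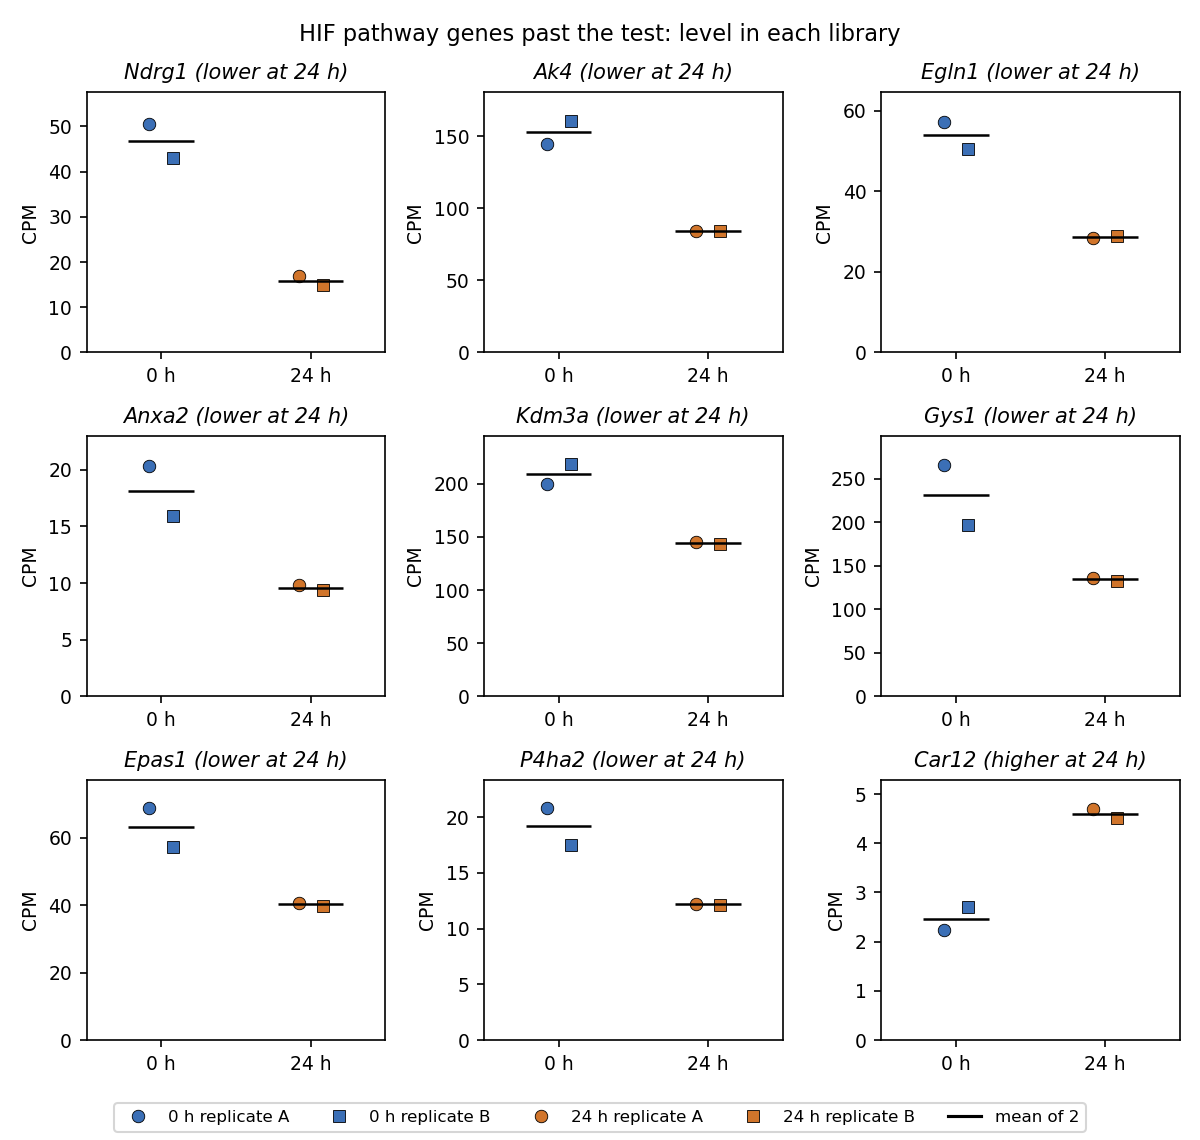
CPM (linear axes from 0) in each library of the 9 members past the test, with lines at the mean of 2 libraries. In all 9 panels the 24 h libraries lie apart from the 0 h libraries, lower in 8 and higher for Car12. The panels were picked by the test on these same libraries, so this separation adds no support. Of all genes, 29.5% lay apart with 24 h lower and 29.3% with 24 h higher.

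Among genes acting in mitochondria and mitophagy, Ak4 fell and 3 did not pass. Ak4, a mitochondrial adenylate kinase gene (chromosome 4, 101419277 to 101466995), was at 144.9 and 160.4 CPM at 0 h and 84.3 CPM in both 24 h libraries. It fell by 44.8% (log2 fold change -0.86, SE 0.11, adjusted p = 0.00923). Unlike most members that fell, Ak4 was lower in 0 h A than in B. Bnip3, a mitophagy receptor gene, was at 28.2 and 41.5 CPM at 0 h and 19.8 and 24.3 CPM at 24 h (log2 fold change -0.66, adjusted p = 0.102). Its paralog Bnip3l was at 44.9 and 64.3 CPM at 0 h and 40.1 and 40.8 CPM at 24 h (log2 fold change -0.43, adjusted p = 0.174). Both genes were high in 0 h B, and without that library their log2 fold changes were -0.36 and -0.16, while without 0 h A they were -0.92 and -0.67. A pseudogene, Bnip3l-ps, is annotated. Higd1a, which encodes a small protein of the respiratory chain, was at 17.99 and 19.2 CPM at 0 h and 16.8 and 17.4 CPM at 24 h (log2 fold change -0.12, adjusted p = 0.577).

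Of 5 enzyme genes of collagen and matrix modification, P4ha2 fell and 4 did not pass. P4ha1 and P4ha2 encode catalytic subunits of collagen prolyl 4-hydroxylase. P4ha2 (chromosome 11, 54100095 to 54131665) was at 20.8 and 17.5 CPM at 0 h and 12.2 and 12.1 CPM at 24 h. Its log2 fold change was -0.65 (SE 0.14, adjusted p = 0.0442), close to the threshold. P4ha1 was at 75.4 and 88.0 CPM at 0 h and 67.7 and 65.7 CPM at 24 h (log2 fold change -0.29, adjusted p = 0.174). It was the more abundant of the pair per kb, P4ha2 making up 10.6% to 15.4% of their sum in the 4 libraries.

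The lysyl hydroxylase genes Plod1 and Plod2 had fold changes of opposite sign, and neither passed. Plod1 was at 64.9 and 51.9 CPM at 0 h and 42.1 and 37.5 CPM at 24 h (log2 fold change -0.55, SE 0.14, adjusted p = 0.0672). Plod2 was at 92.2 and 102.7 CPM at 0 h and 124.7 and 129.6 CPM at 24 h (log2 fold change 0.38, SE 0.11, adjusted p = 0.0802). In each gene the groups did not overlap. Plod2 made up 64.1% and 71.3% of their summed level per kb at 0 h and 78.8% and 81.3% at 24 h. Loxl2, a lysyl oxidase-like gene, was at 10.4 and 10.1 CPM at 0 h and 10.02 and 8.57 CPM at 24 h (log2 fold change -0.14, adjusted p = 0.594). Fibroblasts make these matrix enzymes too, and the part of feeder RNA was not tested for this group either.

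Of the JmjC-domain enzymes, which like the Egln products need oxygen and 2-oxoglutarate, Kdm3a fell and Jmjd6 did not pass. Kdm3a, a histone H3 lysine 9 demethylase gene (chromosome 6, 71588972 to 71632990), was at 199.8 and 219.2 CPM at 0 h and 145.1 and 143.3 CPM at 24 h. The 24 h libraries lay below both 0 h libraries, and 0 h A was the lower of the pair. On the log2 scale Kdm3a fell by 0.54 (SE 0.10, adjusted p = 0.0285). Jmjd6 was at 72.5 and 56.7 CPM at 0 h and 55.5 and 63.7 CPM at 24 h. Its groups overlapped (log2 fold change -0.12, adjusted p = 0.654), and without 0 h A the value was 0.07. Jmjd6 shares 172 exonic bases with Mettl23 on the other strand.

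The secreted signals did not pass the test. Vegfa, the main growth factor for blood vessels and a widely used HIF target, was at 140.8 and 130.1 CPM at 0 h and 146.1 and 138.5 CPM at 24 h. The groups overlapped, and its log2 fold change was 0.07 (SE 0.10, adjusted p = 0.697). Adm, which encodes the vasodilator adrenomedullin, was at 1.01 CPM in both 0 h libraries and 1.21 and 1.47 CPM at 24 h (log2 fold change 0.41, adjusted p = 0.379).

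Of the 2 carbonic anhydrase genes, whose products set pH at the cell surface, Car12 rose and Car9 did not pass. Car12 (chromosome 9, 66713686 to 66766845) was at 2.23 and 2.70 CPM at 0 h and 4.69 and 4.51 CPM at 24 h. Both 24 h values were above both 0 h values. On the log2 scale Car12 rose by 0.90 (SE 0.20, adjusted p = 0.0419). Car9, among the most hypoxia-specific targets in many tissues, was at 1.74 and 2.00 CPM at 0 h and 1.59 and 1.56 CPM at 24 h (log2 fold change -0.24, adjusted p = 0.535). It overlaps the noncoding gene Gm12454 on the other strand by 214 exonic bases, so its counts are uncertain. Per kb, these were 2 of the 3 least abundant members at both times, with Adm.

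The genes of transcription and growth control did not pass, and their signs were mixed. Bhlhe40, a transcriptional repressor gene of the circadian and hypoxia response, was at 53.3 and 47.1 CPM at 0 h and 37.5 and 35.6 CPM at 24 h (log2 fold change -0.46, adjusted p = 0.0680). Mxi1, which encodes an antagonist of MYC, was at 58.5 and 59.9 CPM at 0 h and 45.8 and 49.4 CPM at 24 h (log2 fold change -0.31, adjusted p = 0.129). Both had 24 h libraries below the 0 h libraries. Ddit4, which encodes the mTORC1 inhibitor REDD1 and also responds to p53 and ATF4, was at 174.5 and 142.7 CPM at 0 h and 227.3 and 210.0 CPM at 24 h. Its 24 h libraries were higher without overlap (log2 fold change 0.46, SE 0.13, adjusted p = 0.0764).

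Per kb of exon, 24 of the 30 members were above the median of 3.88 CPM per kb over all genes tested at 0 h, and 22 were above the median of 3.91 at 24 h. Ddit4 was the most abundant member at both times, at 90.4 ± 12.8 CPM per kb at 0 h and 124.6 ± 6.94 at 24 h (SD, n = 2). Gys1 came next at 0 h, at 48.3 ± 10.1, and lay below Vegfa and Hif1a at 24 h, at 28.0 ± 0.434. Many neighbours in the order overlapped at 0 h, among them Ak4 (32.8 ± 2.36) and Vegfa (31.6 ± 1.76). Median GC content was 51.9% in the 8 members that fell, 50.9% in the 21 that did not pass and 49.9% over all genes tested.

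Among 15 further genes for subunits, coactivators, chaperones and ubiquitin ligase parts, Arnt2 rose, 0 fell and 14 did not pass (4.15% of all genes rose and 2.65% fell). At an unadjusted p under 0.05, 2 of the 15 were lower (12.6% of all genes) and 1 was higher (13.2%). DESeq2 called 1 lower and 1 higher, and limma voom 0 lower and 1 higher. Arnt2, a paralog of Arnt most active in neural tissue, was at 3.44 and 2.98 CPM at 0 h and 5.90 and 6.73 CPM at 24 h (log2 fold change 0.97, SE 0.18, adjusted p = 0.0290). Its level per library stayed far below the 141.7 to 156.9 CPM of Arnt, a gene of similar exon length. Cited2, itself a HIF target whose product competes for the coactivator p300, was at 54.2 and 39.4 CPM at 0 h and 31.0 and 30.9 CPM at 24 h (log2 fold change -0.60, adjusted p = 0.0781). The log2 fold change of the chaperone gene Hsp90ab1 was -0.23 (adjusted p = 0.148) and that of the ubiquitin ligase gene Siah2 -0.36 (adjusted p = 0.358). Leaving out 0 h A, 0 h B, 24 h A and 24 h B in turn, 5, 6, 0 and 0 of the 15 were lower (15.8%, 27.0%, 1.05% and 0.899% of all genes) and 1, 4, 0 and 0 higher (16.5%, 23.2%, 1.97% and 1.81%).

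A second list of hypoxia targets outside glycolysis showed falls in 3 of 24 genes tested and rises in 0, with a median log2 fold change of 0.02, where 2.65% of all genes fell and 4.15% rose. At an unadjusted p under 0.05, 5 of the 24 were lower (12.6% of all genes) and 1 was higher (13.2%). DESeq2 and limma voom each called 3 lower and 0 higher. Ndufa4l2, which encodes a HIF-induced protein related to a cytochrome oxidase subunit, was at 25.5 and 18.5 CPM at 0 h and 10.8 and 10.7 CPM at 24 h (log2 fold change -1.03, SE 0.18, adjusted p = 0.0226). Kdm4b, like Kdm3a a JmjC histone demethylase gene, was at 79.9 and 58.0 CPM at 0 h and 37.8 and 34.1 CPM at 24 h (log2 fold change -0.94, SE 0.17, adjusted p = 0.0236). Pdk1, whose product keeps pyruvate from the mitochondrial dehydrogenase, was at 42.0 and 42.8 CPM at 0 h and 28.1 and 29.7 CPM at 24 h (log2 fold change -0.55, SE 0.11, adjusted p = 0.0344). In all 3 genes the groups did not overlap. After correction for GC and length the log2 fold changes of Ndufa4l2, Kdm4b and Pdk1 were -0.73, -0.71 and -0.64. Without 0 h A they were -0.78, -0.69 and -0.57. Ndufa4l2 shares 32 exonic bases with Shmt2 on the other strand. Without 0 h A, 0 h B, 24 h A and 24 h B in turn, 7, 4, 2 and 1 of the 24 were lower (15.8%, 27.0%, 1.05% and 0.899% of all genes) and 2, 4, 0 and 0 higher (16.5%, 23.2%, 1.97% and 1.81%). The share lower without 0 h B was thus below that of all genes. Epo, the gene of erythropoietin, did not pass the filter.

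For comparison, 8 of 19 glycolytic HIF targets fell and 0 rose, with a median log2 fold change of -0.58, where 2.65% of all genes fell and 4.15% rose. They include Ldha (-0.99), Slc16a3 (-1.74), Aldoc (-1.18) and Pfkp (-0.67, overlapping Pitrm1 on the other strand). At an unadjusted p under 0.05, 15 of the 19 were lower (12.6% of all genes) and 1 was higher (13.2%). DESeq2 called 12 lower and limma voom 7, and both called 0 higher. With 0 h A, 0 h B, 24 h A and 24 h B left out in turn, 17, 16, 3 and 3 of the 19 were lower (15.8%, 27.0%, 1.05% and 0.899% of all genes) and 1, 1, 0 and 0 higher (16.5%, 23.2%, 1.97% and 1.81%). Whether the glycolytic list differed from the targets outside glycolysis was not tested.

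**Figure D4:**
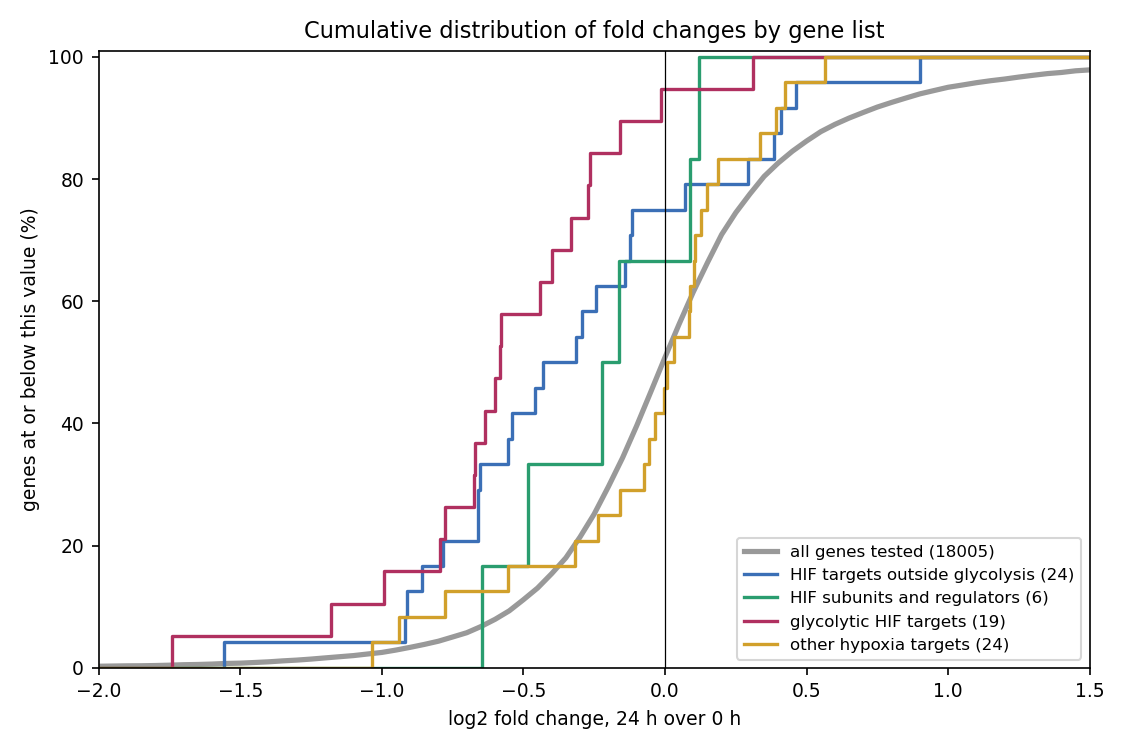
Cumulative share of genes (y axis, percent) at or below each log2 fold change (x axis) for all 18005 genes tested and for 4 gene lists. The lines of the HIF targets outside glycolysis (median -0.37) and of the glycolytic targets (median -0.58) run left of that of all genes (median -0.01), while that of the other hypoxia targets (median 0.02) runs close to it.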

How the data were processed

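The authors deposited raw read counts per Ensembl gene. The kit was TruSeq stranded mRNA with single-end 50 nt sequencing, per the labels' protocols. The submitters' processing notes name mm10, TopHat2, HTSeq and DESeq, with neither role nor version. Gene annotation and counting by strand are not described in the sources used here, so genes that overlap on either strand cannot be told apart. GENCODE M21 gave symbols, exon length and GC content (GRCm38, the assembly of mm10), with no match for 563 identifiers.

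Genes were filtered with filterByExpr (minimum count 10, minimum total 15), leaving 18005. Groups were compared with TMM scaling and the quasi-likelihood test of edgeR 4.0.16 (legacy=TRUE, 2-sided, R 4.3.3), with Benjamini-Hochberg adjustment over all genes and a threshold of 0.05. SEs were derived from the fold change and its F statistic. CPM per kb divides CPM by merged exon length. Named genes are all members, and up to 4 of each further list in order of p; a gene that this rule names is not reported here. Members and lists were chosen with earlier results of these data known. Alternatives used DESeq2 1.42.0, limma 3.58.1, other scalings and filters, a replicate block, a GC and length correction, and each library left out. The labels do not say that A and B were separate cultures or clones, so p-values measure only the spread between these libraries, which may be technical. Library totals set counting error, which no value printed here includes separately. Promoter sequences are from RefSeq.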

Additional observations from a re-analysis of the deposited data

How the results depend on the processing

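Under the 14 alternatives, 28 of the 30 members kept the sign of their log2 fold change. The exceptions were Hif1a, at -0.059 after correction for GC and length, -0.059 when the replicate block was added to it, and -0.014 without 0 h A (0.19 without 0 h B), and Jmjd6, at 0.070 without 0 h A (-0.29 without 0 h B). The letters A and B are not stated to mark shared clones. Deviations of same-letter libraries correlated at r = 0.196 across 14368 genes, for A and B alike by construction. The lists tested hold 24 targets outside glycolysis, 6 subunits and regulators, 15 other components, 24 other hypoxia targets and 19 glycolytic targets. Their counts below are to be read against the share of all genes in parentheses. With the replicate block, 1595 genes were lower (8.86%) and 1658 higher (9.21%), against 477 (2.65%) and 748 (4.15%) without it. In that fit, 12 targets outside glycolysis were lower and 3 higher, 2 subunits and regulators lower, and 1 other component lower. After correction for GC and length, 2200 genes were lower (12.2%) and 2055 higher (11.4%). That fit called 14 targets lower and 4 higher, 3 other components lower, 5 other hypoxia targets lower and 1 higher, and 16 glycolytic targets lower and 1 higher. With that correction and the replicate block, 3096 genes were lower (17.2%) and 2698 higher (15.0%). The calls were then 14 targets lower and 4 higher, 2 subunits and regulators lower, 4 other components lower and 2 higher, 7 other hypoxia targets lower and 2 higher, and 17 glycolytic targets lower and 1 higher. With no filter on low counts, 1359 genes were lower (5.10%) and 1230 higher (4.61%), 11 targets lower and 2 higher, and 2 other components lower. DESeq2's Wald test called 950 genes lower (5.28%) and 1037 higher (5.76%). It called 10 targets lower and 2 higher, and 1 other component lower. Upper quartile scaling and library size alone each gave 2 targets higher, where 5% and 5.34% of all genes were higher. Leaving out each library in turn gave 168 to 5064 genes lower and 338 to 4352 higher. The ranges were 1 to 14 targets lower and 0 to 5 higher, 0 to 4 subunits and regulators lower and 0 to 2 higher, 0 to 6 other components lower and 0 to 4 higher, 1 to 7 other hypoxia targets lower and 0 to 4 higher, and 3 to 17 glycolytic targets lower and 0 to 1 higher. With a library left out, 1 of the groups holds 1 library, and the list counts are to be read against those over all genes. The median log2 fold change of the subunits and regulators was -0.19 with all libraries and ran from -0.22 to -0.14 in those fits. The cause of the differences between the alternatives was not tested.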

Other observations

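Paralogs of the members were looked at after the members' values were seen, so their counts carry no weight. Of 22 paralogs, 21 passed the filter. In edgeR's test with Benjamini-Hochberg adjustment, 3 were lower and 3 higher, where 2.65% of all genes were lower and 4.15% higher. The 3 higher include Car4, at or under 0.382 CPM in each library. Ndrg2, a paralog of Ndrg1, fell from 21.6 and 15.6 CPM to 9.50 and 11.05 CPM (log2 fold change -0.86, adjusted p = 0.0449). Kdm3b, the closest paralog of Kdm3a, fell from 285.3 and 257.7 CPM to 184.7 and 178.2 CPM (log2 fold change -0.58, adjusted p = 0.0236). The log2 fold changes of Ndrg3 and Ndrg4 were -0.25 and -0.26, and neither passed. Among annexin genes, Anxa5 rose from 11.9 and 14.3 CPM to 21.9 and 20.6 CPM (log2 fold change 0.70, adjusted p = 0.0379), against the fall of Anxa2. Anxa6 was lower, near the threshold (log2 fold change -0.54). P4ha3, a weakly expressed paralog of P4ha2, rose from 0.573 and 0.309 CPM to 1.21 and 1.62 CPM (log2 fold change 1.67, adjusted p = 0.0484). Whether a member and its paralog differed in response was not tested.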
